A study of Sus scrofa with 12 samples.

Results

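The data described here are the 3 arrays of porcine semimembranosus muscle, a large muscle of the ham, taken 20 min after death, out of 12 arrays in the study. They were chosen by their titles alone. Each array holds RNA of 1 pig, and the 3 animals, called pig 1, 2 and 3 as labelled, were females of a commercial hybrid of about 160 kg from a single farm, stunned with CO2 at 87% and slaughtered at a single abattoir. Age, sire line and halothane genotype were not given in the sources used here, and no living or unstunned muscle was measured, so every value below belongs to muscle that had already been through stunning and bleeding. The other 9 arrays are portions of the same muscle of the same pigs at 2, 6 and 24 h, kept in the cold chain. They served here only to ask whether the pigs differ from each other. No level is compared between times.

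Skeletal muscle is made of multinucleate fibres packed with sarcomeres, in which myosin heads pull on actin filaments under the control of troponin, tropomyosin and calcium. Slow fibres use their own isoforms of these proteins and draw mainly on mitochondria, whereas fast fibres use other isoforms and draw mainly on glycogen and phosphocreatine. Between the fibres lie capillaries, fibroblasts, fat cells, nerves and resident macrophages, whose RNA is extracted together with that of the fibres.

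The values are log2 expression levels deposited by the authors after robust multi-array averaging (RMA), so a step of 1 is a 2-fold difference. Of 24123 probe sets, 10069 carried exactly 1 gene symbol and were no array controls. They stood for 6765 genes, and each gene was given the level of its brightest probe set. A level holds the affinity of its probes as well as the amount of RNA, so the ranks below order genes by brightness on this array and do not give ratios between genes. Fold differences are given only for 1 gene between pigs. Of 733 genes sought by name in 31 lists of muscle pathways and cell type markers, 531 were measured. The others, among them ACTA1, ALDOA, MYH1, MYH4, ACTN3 and CASQ1, are not analysed here.

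Over the 6765 genes the mean level ran from 2.78 to 14.69 with a median of 7.44. The 100 brightest genes lay above 13.14, and the brightest decile, 676 genes, above 10.59. The brightest genes were mostly shared by the 3 animals. Of the 100 brightest genes by the mean, 85 were among the 100 brightest in each of the 3 pigs, and of the 25 brightest, 22 were among the 25 brightest in each. Array medians over all probe sets lay between 5.91 and 5.93.

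The array of pig 1 stood apart in the bacterial RNA controls, which in this array system are added to a sample before labelling and hold no pig RNA. Their 36 probe sets averaged 9.47, 6.77 and 6.99 for the 3 pigs, and all 36 were highest in pig 1. The same was so in the later portions, where pig 1 exceeded the mean of the other pigs by 2.93 at 2 h, 2.51 at 6 h and 2.89 at 24 h, against 2.59 at 20 min. The 27 probe sets of hybridisation controls, added after labelling, did not share this, with means of 10.40, 10.50 and 10.62 at 20 min and none highest in pig 1. The samples of pig 1 therefore differed from the others in the controls as well as in the animal, in every portion. For any gene in which pig 1 stands apart, the animal and the handling of its samples cannot be told apart.

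The brightest genes of this muscle were those of the contractile filaments, of glycolysis and of the ribosome. Of the 100 brightest, 27 were contractile or calcium-handling genes, 27 encoded cytosolic ribosomal proteins, 15 belonged to energy metabolism and 9 to the stress and proteolysis lists. No marker of another cell type was among them. The other 22 were in no list. The count for energy metabolism was 23, and that for stress and proteolysis 5, when a gene was given the mean of all its probe sets instead of the brightest.

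The single brightest gene was ACTG1, annotated as cytoplasmic gamma-actin, at 14.69, 14.71 and 14.67 in pigs 1, 2 and 3. The probe set behind this value carries a name suffix that the array uses for probes shared by several transcripts, and the other probe sets of ACTG1 read as low as 4.04, so its brightness cannot be assigned to gamma-actin alone. GAPDH, a glycolytic dehydrogenase often used as a reference gene, came next at 14.59, 14.58 and 14.57. Then followed TNNC2, the calcium sensor of fast troponin, with a mean of 14.52 ± 0.02 (SD, n = 3), and CKM, the muscle creatine kinase that regenerates ATP from phosphocreatine, with 14.49 ± 0.02 (SD, n = 3). MYL2, MYL1, MYLPF, ENO3, SLN and MYH7 completed the first 10, with means between 14.44 and 14.27.

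The genes at ranks 11 to 25 were of the same kinds with a few general cellular genes among them. MYH2, TNNT3 and TNNI2 encode fast myosin and troponin subunits. PYGM (14.21), PGAM2 (14.08) and LDHA (14.00) act in the breakdown of glycogen to lactate. FHL1, TPM1 and TTN (titin, the elastic ruler of the sarcomere) lay between 14.14 and 14.09. UBB, a ubiquitin gene, had 14.15, and ATF4, the transcription factor of the integrated stress response, 13.98. The remaining 4, TPT1, YBX3, B2M and BUD23, belong to none of the lists. TPT1 encodes a translationally controlled protein, YBX3 an RNA-binding cold-shock domain protein and B2M the light chain of MHC class I. Other probe sets of ATF4 (5.28), YBX3 (4.69), BUD23 (9.58), B2M (down to 7.93) and TPM1 (down to 6.12) were far dimmer, so these places rest on the brightest set. Rank 26, just outside, was PGM1 at 13.97.

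**Figure D1:**
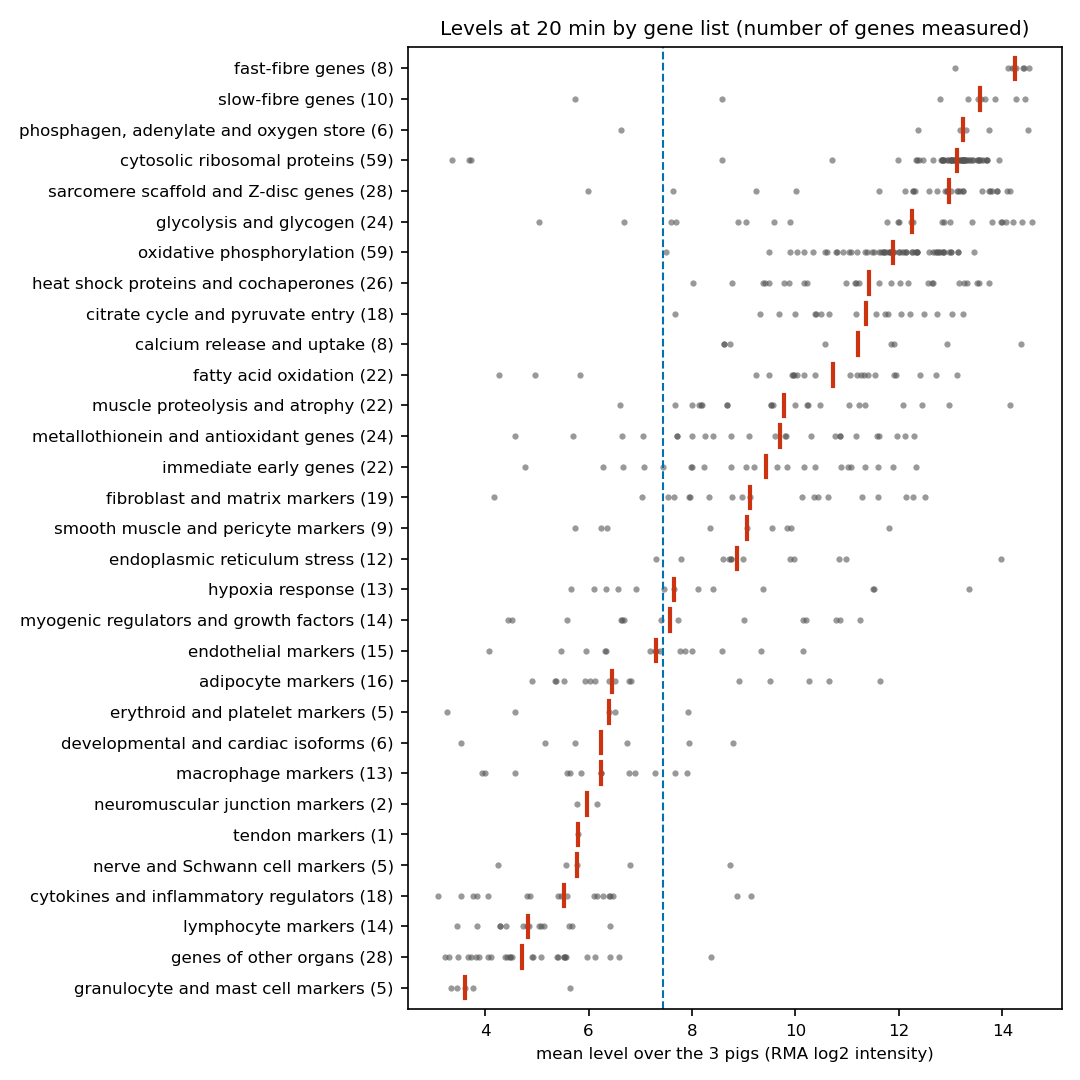
RMA log2 level at 20 min (horizontal axis) of the genes in each list (rows), 1 grey point per gene as the mean over the 3 pigs, with a red bar at the list median and a dashed line at the median of all genes, 7.44. Fast-fibre genes have a median of 14.24 and ribosomal protein genes of 13.13, whereas genes of other organs have a median of 4.71.

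The level of a gene depended far more on the probe set than on the pig. The 2261 genes with several probe sets had a median range of 1.70 between their sets, against a median range of 0.28 between the 3 pigs for the same genes. In 1576 of them, 69.7%, the sets differed by more than 1. Besides ACTG1, the most unlike were GAPDH (14.58 down to 4.27), DES, the intermediate filament protein desmin (13.23 and 3.44), PDLIM5, a Z-disc adaptor (13.14 down to 3.36), and RPL7, a ribosomal protein (13.00 and 3.47). A low rank of a gene therefore does not show that its RNA was scarce. Of the 100 brightest probe sets on the array, 25 carry no gene symbol in the annotation used, so the list of brightest genes is not complete.

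All 8 fast-fibre genes measured were in the brightest decile, and 7 of them in the first 25. MYL1, the fast essential light chain, read 14.40, 14.42 and 14.44, and MYLPF, the fast regulatory light chain, 14.37, 14.40 and 14.42. MYH2, the myosin heavy chain of fast oxidative fibres, read 14.20, 14.24 and 14.33. ATP2A1, the calcium pump that ends contraction in fast fibres, was the dimmest of the group at 13.04, 13.07 and 13.13. These genes hardly varied between animals. Their median SD was 0.03, against 0.15 over all genes, and the widest range, in MYH2, was 0.13. Values this high lie at the top of the array's scale, where the median SD of the brightest decile was 0.11, and a flattening of the response there was not tested.

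Slow-fibre genes were nearly as bright, with 8 of 10 in the brightest decile, and they were ordered alike in the 3 animals. MYL2, the slow regulatory light chain, read 14.54, 14.41 and 14.39. MYH7, the slow myosin heavy chain, read 14.39, 14.26 and 14.15. TNNT1, the slow troponin that ties the complex to tropomyosin, read 14.03, 13.84 and 13.69. In each of these pig 1 was highest and pig 3 lowest, with differences of 0.15 to 0.34.

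The same order held for MYBPC1, a slow myosin-binding protein, at 13.82, 13.62 and 13.54, and for ATP2A2, the slow calcium pump, at 13.53, 13.32 and 13.15. Of the dimmer probe sets of ATP2A2, that at 6.44, 6.37 and 6.34 had this order. Those at 6.72, 6.53 and 6.65 and at 5.02, 7.23 and 6.03 did not. The spread was wider in TNNI1, the inhibitory slow troponin (13.94, 13.51 and 13.33), and widest in MYL3, the slow essential light chain (13.14, 13.00 and 12.25). TNNC1, the calcium sensor of slow troponin, read 13.83, 13.41 and 13.38. In all, 8 of the 10 slow-fibre genes, 80%, had the order pig 1 over pig 2 over pig 3, which 22.2% of all genes had. None of the 8 fast-fibre genes had it, and 6 of these had their highest value in pig 3. The exceptions among slow-fibre genes were TPM3, a slow tropomyosin (8.40, 8.47 and 8.89), and CASQ2, a calcium-storing protein of slow and cardiac muscle (6.41, 4.91 and 5.89), which were also the dimmest.

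The 28 genes of the sarcomere scaffold and Z-disc had a median level of 12.97. The giant proteins titin and nebulin read 14.12, 14.09 and 14.05 for TTN and 13.85, 13.91 and 13.94 for NEB. MYOZ1, a calcineurin-binding Z-disc protein of fast fibres, read 13.77, 13.81 and 13.81. One member stood out by its variation. ANKRD1, a stretch-responsive ankyrin repeat protein of the titin filament, read 11.34 in pig 1, 13.39 in pig 2 and 13.02 in pig 3, a range of 4.14-fold. Its other probe set, at 5.79, 10.11 and 8.57, had the same order. PDLIM7, an adaptor of the actin cytoskeleton, was the dimmest member at 5.73, 6.02 and 6.21.

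Cardiac and developmental isoforms were dim. None of the 6 measured was in the brightest decile, and their median was 6.23. ACTC1, cardiac alpha-actin, was the brightest at 9.10, 8.28 and 8.99, followed by TNNI3, cardiac troponin I, at 8.19, 7.97 and 7.69. TNNT2, cardiac troponin T, read 3.79, 3.31 and 3.52, and NPPA and NPPB, the natriuretic peptides of the heart, had means of 5.15 and 5.73. CKM, MYH2 and MYH7, markers of the labelled tissue, were near the top. The low levels of the cardiac and developmental isoforms do not show that their RNA was scarce. ACTC1, with a mean of 8.79, lay above the brightest of the genes of other organs, at 8.37.

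Among the genes of calcium release and uptake, SLN, a small inhibitor of the calcium pump, was the brightest at 14.31, 14.37 and 14.41. RYR1, the release channel of the sarcoplasmic reticulum, read 12.91, 13.13 and 12.77, with its highest value in pig 2. PLN, the phospholamban of slow and cardiac muscle, read 11.96, 11.92 and 11.63. CAMK2B, a subunit of a calcium-dependent kinase, was the dimmest of the 8 at 8.53, 8.84 and 8.48.

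Glycolytic genes held 8 of the first 100 places, with a list median of 12.25 over 24 genes. ENO3, the muscle enolase, read 14.42, 14.37 and 14.35, and PYGM, which releases glucose units from glycogen, 14.18, 14.25 and 14.21. LDHA, which makes lactate, had one of the smallest SDs among the bright genes, 0.005. LDHB, the subunit favoured in oxidative muscle, varied more, at 12.65, 12.16 and 11.98. SLC16A3, the transporter that exports lactate, read 9.23, 8.97 and 8.47, and GYS1, the glycogen synthase, 9.89, 9.60 and 9.26, both with pig 1 highest. PRKAG3, the regulatory subunit of AMP kinase known for its effect on glycogen in pig muscle, was dim at 6.72, 6.60 and 6.76. The largest SD of the list, 0.39, was that of HK1, a hexokinase, at 7.34, 7.40 and 8.05. The lowest level was that of PHKG1, the catalytic subunit of phosphorylase kinase, at 5.29, 4.88 and 4.94.

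In the phosphagen and adenylate group, CKM read 14.50, 14.50 and 14.48 and SLC25A4, the mitochondrial ADP/ATP carrier, 13.85, 13.73 and 13.64. AMPD1, the AMP deaminase of muscle, read 13.10, 13.34 and 13.47. CKB, the creatine kinase of brain and other tissues, was low at 6.77, 6.77 and 6.33.

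Of the mitochondrial lists, 52 of 59 genes of oxidative phosphorylation, 11 of 18 of the citrate cycle and 11 of 22 of fatty acid oxidation lay in the brightest decile. ATP5A1, a subunit of ATP synthase, read 13.52, 13.40 and 13.43. COX6C, a subunit of cytochrome oxidase, read 13.16, 13.17 and 13.13, and NDUFA4, a small respiratory-chain subunit, 13.21, 13.12 and 13.07. Pig 1 had the highest value in 45 of the 59 genes, 76.3%, against 37.9% of all genes. The differences were small, with a mean deviation of pig 1 from the gene averages of 0.11. The widest ranges were in ATP5B, another subunit of ATP synthase (13.22, 12.94 and 12.39), and in NDUFB9, a subunit of complex I (12.27, 12.22 and 11.53). The dimmest member, NDUFV3, read 7.70, 7.54 and 7.26.

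In the citrate cycle list, PDK4, a kinase that shuts pyruvate out of the mitochondrion, was the brightest at 13.14, 13.49 and 13.09. CS, citrate synthase, read 13.10, 12.99 and 12.98, and IDH2, mitochondrial isocitrate dehydrogenase, 12.95, 12.71 and 12.51. Pig 3 was lowest in 12 of the 18 genes, 66.7%, against 37.0% of all genes. In the fatty acid oxidation list, FABP3, the fatty acid carrier of muscle and heart, read 13.42, 13.09 and 12.86. ACADM, an acyl-CoA dehydrogenase, had the opposite order at 12.45, 12.83 and 12.89, so the genes of this pathway did not share a single order of the pigs. CPT1B, which admits long-chain fatty acids to the mitochondrion, read 10.38, 10.40 and 9.71 and had the largest SD of that list, 0.40. PPARA, a nuclear receptor for fatty acids, was the dimmest at 4.40, 4.21 and 4.20.

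Ribosomal protein genes were both bright and even. Of 59, 55 were in the brightest decile. RPS29 read 13.95, 13.89 and 13.95, and RPS28 read 13.70, 13.68 and 13.73. The dimmest, RPL30, at 3.21, 3.69 and 3.19, lay as low as control probes for genes that are not of the pig.

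The stress genes showed the widest range of behaviour. Heat shock proteins are chaperones that hold or refold damaged proteins, and the small ones of this family are abundant in muscle. Of 26 heat shock and cochaperone genes, 17 were in the brightest decile. CRYAB, a small chaperone of desmin, read 13.60, 13.92 and 13.69, and HSPB1, another small chaperone, 13.26, 13.81 and 13.55. HSP70.2, an inducible 70 kDa chaperone by annotation, read 12.84, 13.54 and 13.42, although near-identical copies of this gene may share its probes. Pig 1 was lowest in 16 of the 26 genes, 61.5%, against 30.5% of all genes.

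In this list only DNAJB1 and HSPB6 had a range above 1 between pigs. DNAJB1, which feeds clients to HSP70, read 7.29, 8.45 and 8.34, and its SD of 0.64 was the largest of the list. HSPA6, an inducible heat shock protein that was not in the list, had a larger SD of 1.40. HSPH1, a nucleotide exchange factor, read 11.06, 12.03 and 11.74. DNAJB4 had 11.51, 12.47 and 12.07. HSPB6, a small chaperone linked to relaxation, went the other way with 11.70, 11.40 and 10.62, pig 1 being the highest. HSP90AB1, the constitutive HSP90, was steady at 12.51, 12.55 and 12.60.

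Immediate early genes, which are transcribed within minutes of a stimulus without new protein synthesis, varied most of all. Of the 22 measured, 14 had a range above 1 between pigs, against 3.59% of all 6765 genes. Pig 1 was the lowest in 17 of them, 77.3%, against 30.5% of all genes. Its array is also the one with the high added controls. FOS, a subunit of the AP-1 transcription factor, read 8.78 in pig 1, 12.74 in pig 2 and 12.51 in pig 3, a range of 15.6-fold and an SD of 2.22, the largest of all genes. EGR1, a zinc finger factor, read 5.87, 9.33 and 8.73. ATF3, a stress-induced repressor, read 9.49, 11.83 and 11.92. In each of these pigs 2 and 3 lay close to each other and pig 1 far below.

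JUN, the partner of FOS, varied less at 11.32, 12.52 and 11.80. DUSP1, a phosphatase that switches off MAP kinases, read 10.22, 12.54 and 12.05, and ZFP36, which speeds the decay of cytokine mRNAs, 8.76, 11.18 and 10.59. BTG2, an antiproliferative gene, read 9.70, 12.02 and 10.94, and CYR61, a matrix-associated signalling protein, 7.61, 10.61 and 9.38. Not all members followed. CEBPB, the brightest of the list, read 12.43, 12.31 and 12.28. NR4A3, an orphan nuclear receptor, was highest in pig 1 at 10.21, 8.76 and 9.98. NR4A2, its relative, was the dimmest at 4.37, 5.12 and 4.79.

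The other stress lists were quieter. Among endoplasmic reticulum stress genes, ATF4 read 14.04, 13.87 and 14.05, with its other probe set at 5.45, 5.25 and 5.13. HSPA5, the main chaperone of that compartment, read 11.12, 10.91 and 10.91. DDIT3, a factor of prolonged stress, had the largest SD there, 0.48, with 9.28, 8.34 and 8.66. In the hypoxia list, TXNIP, an inhibitor of thioredoxin, read 13.06, 13.51 and 13.50 and VEGFA, the vascular growth factor, 11.32, 11.62 and 11.63, whereas HIF1A, the oxygen-sensitive factor itself, had a mean of 8.41. Antioxidant genes were led by SOD2, the mitochondrial superoxide dismutase, at 12.35, 12.20 and 12.32, and by PRDX3, a mitochondrial peroxiredoxin, at 12.11, 12.16 and 12.10.

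Cytokines were dim, with a median of 5.52 and none of 18 in the brightest decile. NFKBIA, the inhibitor of NF-kappaB, was the brightest at 9.21, 9.14 and 9.09. IL6 read 3.76, 3.89 and 3.88 and CXCL8 3.09, 3.14 and 3.04, as low as genes of other organs. CXCL2, a chemokine for neutrophils, had the largest SD of this list, 0.89, at 3.99, 4.84 and 5.77. IL18, a cytokine of the inflammasome, had the same order at 5.42, 6.25 and 7.14.

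Genes of proteolysis matter in this tissue because calpains and cathepsins act on muscle proteins after slaughter. FBXO32, the ubiquitin ligase atrogin-1, read 13.10, 12.75 and 13.04. CAPN3, the muscle calpain, read 12.03, 12.24 and 11.96, and CAPN1, the calpain best known for meat tenderness, 7.90, 7.86 and 8.22. CAST, the calpain inhibitor calpastatin, was highest in pig 3 at 9.89, 10.13 and 10.73. CTSC, a lysosomal dipeptidase, had the largest SD of the list, 0.83, with 9.30, 9.77 and 10.92. Pig 3 had the highest value in 12 of the 22 genes, 54.6%, against 34.6% of all genes.

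In the list of myogenic regulators and growth factors, PPARGC1A, the coactivator that drives mitochondrial genes and the slow-fibre programme, read 12.53 in pig 1, 10.77 in pig 2 and 10.43 in pig 3, a range of 4.28-fold. MYF6, the myogenic factor of mature fibres, was lowest in pig 1 at 10.21, 11.26 and 11.12. MSTN, the growth inhibitor myostatin, read 5.96, 6.47 and 7.48, and FST, its antagonist follistatin, 6.30, 6.14 and 7.61, both highest in pig 3. PAX3, a factor of muscle precursors, was the dimmest at 4.41, 4.60 and 4.30.

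Markers of the cells between the fibres had graded levels, and those of macrophages, lymphocytes, granulocytes and red cells did not exceed the brightest gene of another organ. In a bulk extract a lower level can come from fewer cells of a type or from less RNA per cell, and these cannot be told apart. Fibroblast and matrix genes were the brightest of them together with smooth muscle genes, with medians of 9.12 and 9.06. SPARC, a collagen-binding matrix protein, read 12.63, 12.20 and 12.68. GSN, the actin-severing gelsolin, read 12.29, 11.86 and 12.70, and DCN, the proteoglycan decorin, 12.04, 11.76 and 12.62. Pig 3 was highest in 17 of the 19 genes, 89.5%, and pig 2 lowest in 15, 78.9%, against 34.6% and 32.6% of all genes.

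The difference between pigs was widest in THY1, a surface marker of fibroblasts, at 8.80, 8.03 and 9.49. FBN1, the microfibril protein fibrillin, read 10.28, 9.94 and 11.11. COL3A1, a fibrillar collagen, did not take part, at 7.95, 7.99 and 7.91. POSTN, the matrix protein periostin, was the dimmest at 3.85, 3.86 and 4.81.

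Smooth muscle and pericyte genes were led by ACTA2, the actin of vessel walls, at 11.51, 11.79 and 12.10, and by RGS5, a pericyte marker, at 10.18, 9.71 and 9.86. TAGLN, a smooth muscle actin-binding protein, read 9.34, 9.89 and 10.28. Endothelial markers had a median of 7.30, and AQP1, the water channel of capillaries, was the brightest at 10.39, 10.26 and 9.78. PECAM1, an adhesion protein of endothelium, read 9.24, 9.19 and 9.57, and KDR, the VEGF receptor, was the dimmest at 3.98, 4.16 and 4.06. Neither list had a gene with a range above 1.

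Adipocyte markers had a median of 6.45. The brightest, PNPLA2 (11.81, 11.71 and 11.37), is a lipase that muscle also uses. FABP4, the fatty acid carrier of fat cells and capillaries, read 10.37, 10.22 and 11.33. ADIPOQ, adiponectin, is made by fat cells and read 4.01, 5.57 and 6.52, a range of 5.70-fold. LEP, leptin, had the reverse order at 6.67, 6.36 and 6.14, so the adipocyte list did not share an order of the pigs.

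Macrophage markers had a median of 6.23. C1QC, a chain of complement C1q, read 7.74, 7.21 and 8.77, and VSIG4, a complement receptor of resident macrophages, 6.95, 6.85 and 8.03. CD163, the haemoglobin scavenger receptor, had a mean of 7.68. In these 3 genes pig 3 was highest and pig 2 lowest. Over the list pig 3 was highest in 8 of 13 and lowest in 4, and pig 2 was lowest in 8. PTPRC, the common leukocyte antigen, was the dimmest at 4.13, 3.95 and 3.74.

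Lymphocyte, granulocyte and red cell markers were low. The lymphocyte median was 4.83, with CD3E, a T cell receptor chain, at 5.46, 5.22 and 4.74 and CD8A at 3.57, 3.47 and 3.32. S100A8 and S100A9, the main cytosolic proteins of neutrophils, had means of 3.61 and 3.76. HBB, beta-globin, read 7.66, 8.07 and 8.04. In the nerve list, MBP, a myelin protein, read 9.16, 8.64 and 8.41 and NEFL, a neurofilament, 4.43, 4.38 and 3.94. CHRNA1, the acetylcholine receptor subunit of the motor endplate, had a mean of 6.15, and COMP, the only tendon marker measured, 5.79.

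How low a level must be to say nothing of expression can be judged from genes that muscle should not express. Of 28 genes of liver, pancreas, brain, lung, pituitary and other organs, the median was 4.71 and the range 3.22 (FGB, a fibrinogen chain) to 8.37 (APOA1, an apolipoprotein). As another measure, 6 control probe sets for genes that are not of the pig lay between 2.97 and 4.07. In all 2290 genes, 33.9%, were brighter than the brightest gene of another organ. The median lymphocyte, granulocyte and cytokine levels lay below that bound and within the range of those genes. So did the median of all genes, 7.44. The same held for the endothelial (7.30), adipocyte (6.45), erythroid and platelet (6.39), macrophage (6.23) and nerve (5.78) medians. It also held for the hypoxia (7.64), myogenic (7.57) and cardiac and developmental (6.23) medians, and for the neuromuscular junction and tendon markers.

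The 3 pigs were alike for most genes. The median SD over pigs was 0.148, or 1.11-fold, and 80.6% of genes had a range under 0.5. A range above 1, or 2-fold, was found in 243 genes, 3.59%, and above 2 in 28. Genes of middling brightness varied most, with a median SD of 0.168 in decile 7 by brightness, 0.110 in the brightest decile and 0.137 in the dimmest. Pigs 1 and 3 differed most, with a median absolute difference of 0.195 over genes, against 0.153 for pigs 1 and 2 and 0.164 for pigs 2 and 3. With a pig left out, and the brightest probe set of each gene chosen again from the other pigs, 95 to 156 genes had a range above 1.

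**Figure D2:**
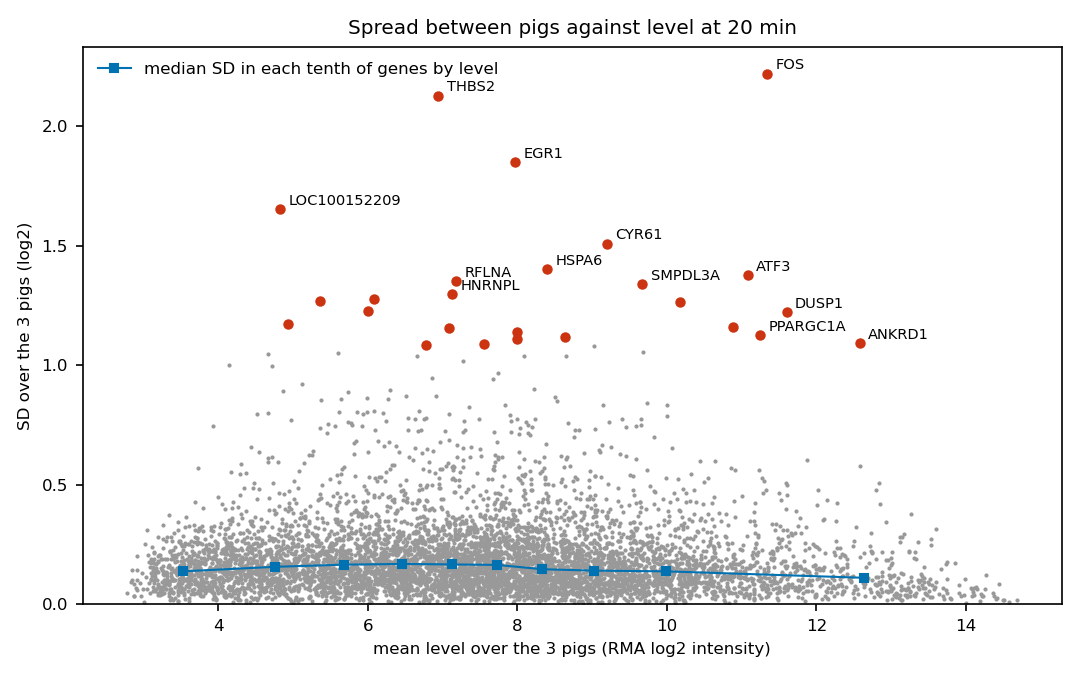
SD over the 3 pigs (vertical axis, log2) against mean RMA log2 level at 20 min (horizontal axis), 1 point per gene for 6765 genes, with the 25 genes of largest SD in red, some of them named, and squares for the median SD in each decile of genes by level. Most genes lie near the median SD of 0.148, and FOS has the largest SD at 2.22.

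Among these 243 genes the pig farthest from the others was pig 3 on the high side in 100 and pig 1 on the high side in 36. Pig 1 was the low one in 57 and pig 2 in 30. Pig 2 was the high one in 11 and pig 3 the low one in 9. As measures of RNA quality, the difference between 3′ and 5′ control probes of actin, which grows as RNA breaks down, was 2.37, 2.23 and 2.33 in the 3 pigs, and that of GAPDH was -0.23, -0.22 and -0.20. The same difference for the elongation factor EF1A was 0.48, 0.63 and 0.23, lowest in pig 3. A second actin pair read 14.56, 14.58 and 14.56 at the 3′ end and 14.52, 14.52 and 14.50 at the 5′ end. A second GAPDH pair read 14.21, 14.17 and 14.14 at the 3′ end and 14.09, 14.06 and 14.07 at the 5′ end. The size and sign of the difference thus depend on the pair of probes. Whether RNA quality or the difference in added controls has a part in the differences between pigs was not tested.

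The 25 genes with the largest SD fell into a few recognisable kinds. Immediate early genes made up 7 of them: FOS, EGR1, CYR61, ATF3, ZFP36, DUSP1 and BTG2. HSPA6, an inducible 70 kDa heat shock protein, read 6.78, 9.29 and 9.12, a range of 5.68-fold. THBS1, a matrix protein of wounds, read 6.68, 8.65 and 8.64, and ADAMTS1, a matrix protease, 6.76, 8.33 and 8.90. All of these, and ANKRD1 with them, were lowest in pig 1.

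Another set was highest in pig 3. THBS2, thrombospondin 2, an inhibitor of vessel growth made by fibroblasts, read 5.50, 5.94 and 9.39, a range of 14.8-fold. LYVE1, a hyaluronan receptor of lymphatic endothelium and some macrophages, read 5.21, 5.50 and 7.56. C4A, a complement component, read 6.93, 6.92 and 8.81. ADIPOQ was also highest in pig 3.

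A further set was highest in pig 1. LOC100152209, a gene known here only by its locus number, read 6.72, 4.07 and 3.69, a range of 8.19-fold. Its values in pigs 2 and 3 lay within 2.97 to 4.07, the range of control probe sets for genes that are not of the pig. The size of this fold is therefore uncertain. HNRNPL, an RNA-binding splicing regulator, read 8.62, 6.49 and 6.28, and RFLNA, a filamin-interacting protein, 8.74, 6.38 and 6.41. CXCL9, a chemokine induced by interferon-gamma, read 7.41, 5.24 and 5.35. BHLHE40, a clock-related repressor, read 8.16, 5.86 and 7.25, and ASNS, asparagine synthetase, 9.60, 7.41 and 8.90. The other probe set of BHLHE40, at 5.67, 5.85 and 5.54, was highest in pig 2. PPARGC1A was also highest in pig 1.

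SMPDL3A, a phosphodiesterase related to acid sphingomyelinase, spread evenly with pig 2 highest, at 9.72, 10.99 and 8.31. SERPINB11, a serpin that was lowest in pig 1, read 3.58, 5.67 and 5.54, and LOC396781 read 7.96, 5.82 and 6.54. The value of SERPINB11 in pig 1 was as low as control probes for genes that are not of the pig. The last of the 25 had an SD of 1.084, and PCOLCE2, a procollagen-processing protein, came just after with 1.080. Without pig 1, 5 of the 25 were still among the 25 genes with the largest SD, against 18 without pig 2 and 21 without pig 3.

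**Figure D3:**
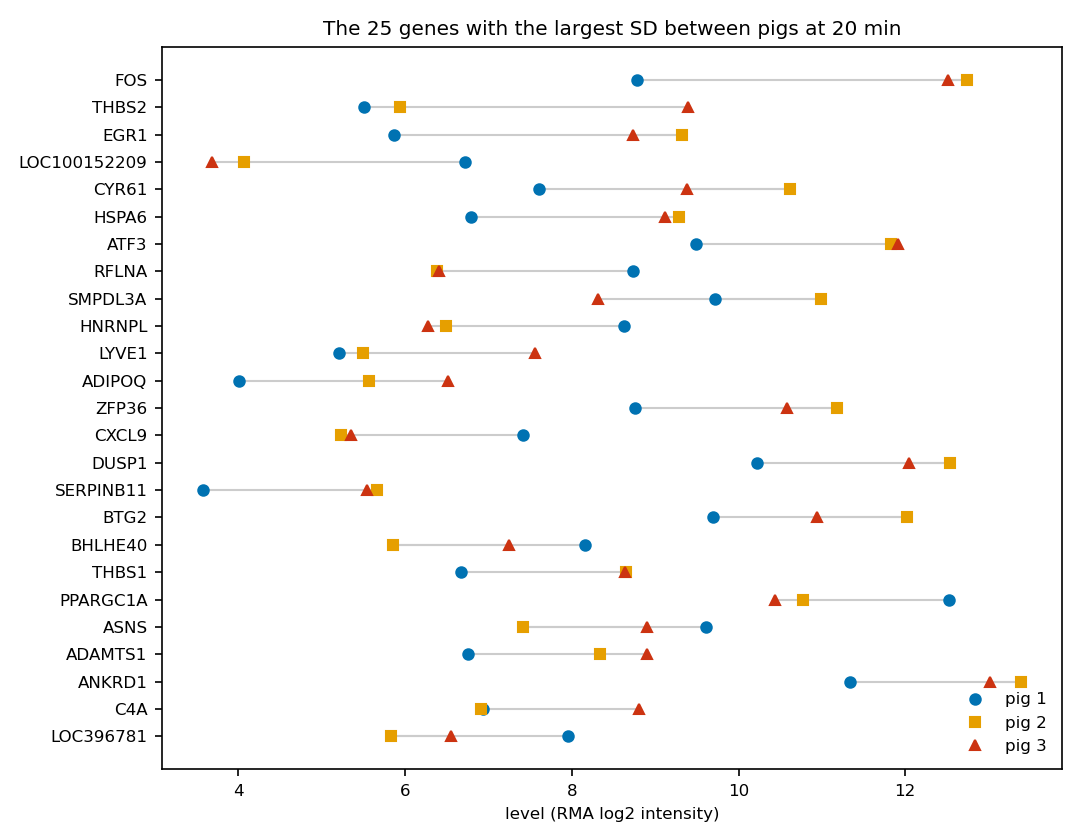
RMA log2 level (horizontal axis) of the 25 genes with the largest SD at 20 min, 1 point per pig (circle, square and triangle for pigs 1, 2 and 3), joined by a line over their range. In FOS, EGR1 and ATF3 pig 1 lies far below the other pigs, and in THBS2 pig 3 lies far above them.

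At the other end, the steadiest of the 1000 brightest genes were DPY30, TSPAN3, CSNK2A1, LDHA, AP2M1, GAPDH, ARIH1, DCTN2, EIF3K and VBP1. LDHA and GAPDH, with SDs of 0.005 and 0.010, are glycolytic. Both lie at the top of the array's scale, where a flattening of the response was not tested. The GAPDH probe set with a mean of 14.55 was as steady, whereas that at 13.09, 12.91 and 12.69 had an SD of 0.20.

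The lists as a whole showed which pig stood apart in which kind of gene. The mean deviation from each gene's average was -0.75, 0.50 and 0.25 in pigs 1, 2 and 3 for immediate early genes and -0.15, 0.19 and -0.04 for heat shock genes. For slow-fibre genes it was 0.22, -0.11 and -0.12, and for fast-fibre genes -0.028, -0.002 and 0.029. Fibroblast and matrix genes had -0.09, -0.33 and 0.42, and macrophage genes -0.04, -0.24 and 0.27. Over all genes the deviations were 0.00, -0.02 and 0.01. With 1 array per pig these deviations have no error of their own at 20 min.

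**Figure D4:**
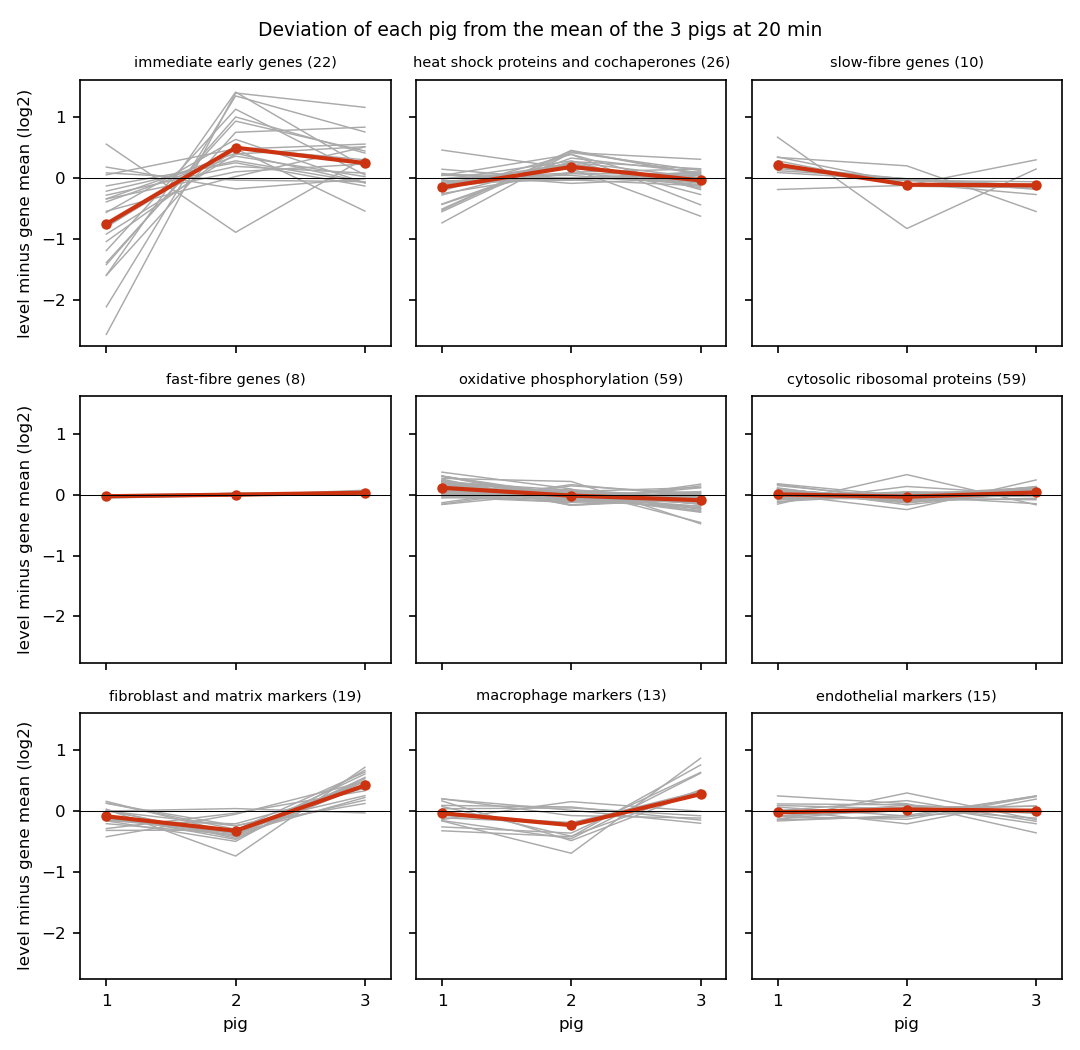
Deviation of each pig's level from the gene's mean over the 3 pigs (vertical axis, log2) by pig (horizontal axis) at 20 min in 9 gene lists, with a grey line per gene and the list mean in red; lines only join values of a gene, since pigs have no order. Pig 1 is lowest for immediate early genes (-0.75) and pig 3 highest for fibroblast and matrix genes (0.42).

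Whether the animals differ beyond the spread between portions was asked in the 9 later arrays, which the ranking of variable genes did not use. Pig was tested there with limma's F test with time as a block, and p-values were adjusted by Benjamini-Hochberg over 23999 probe sets. The portions are of the same 3 animals, so the p-values concern these individuals, with whatever handling went with each, and not pigs at large. Within a pig the portions may share what was particular to that leg. Pig had an adjusted p under 0.05 in 3419 probe sets, 14.2%, and in 1255 of the 6765 genes, 18.6%. Without pig 1 the count was 684 probe sets and 269 genes, 3.98%, and without pig 2 it was 1877 probe sets. Without the 2 h, 6 h or 24 h arrays it was 2257, 963 and 1321. These fits have fewer arrays as well as fewer animals or times.

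The genes that varied most at 20 min also differed between the pigs later. Of the 25 with the largest SD, 23 were called, 92.0% against 18.6% of genes, and 22 of these, 95.7%, had their highest value in the same pig as at 20 min, against 72.3% of all called genes. For FOS the adjusted p from limma was 2.17e-06, for CYR61 1.40e-06, for THBS2 4.51e-06 and for PPARGC1A 0.00137. The 2 not called were THBS1 (adjusted p = 0.0813) and SERPINB11 (adjusted p = 0.159). LYVE1 was called with another pig highest. Of the 243 genes with a range above 1, 191 were called, 78.6%, and 140 of these, 73.3%, had the same highest pig, a share close to the 72.3% (907 of 1255) of all called genes. Of the 100 brightest genes 7 were called. Without pig 1, 6 of the 25 were called, with 3.98% of all genes. In that fit the limma adjusted p of FOS was 0.243, of EGR1 0.39 and of ATF3 0.718.

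Immediate early and heat shock genes differed between the pigs in the later portions too. The gene lists were chosen with earlier results of these data known, so the shares called in any list are description and not independent support. Of the 22 immediate early genes, 18 were called, 81.8%, against 18.6% of all genes. Of these 18, 14 had the same highest pig as at 20 min, 77.8% against 72.3% of all called genes. Of the 26 heat shock genes, 16 were called, 61.5%, and 14 of them had the same highest pig, 87.5%. For DNAJB1 the adjusted p from limma was 0.000454 and for HSPB3, a small chaperone of muscle, 0.000682. Without pig 1, 7 of 22 and 2 of 26 were called, with 3.98% of all genes. For the heat shock genes the count was 10 without pig 2, with 9.52% of all genes. It was 7 without the 2 h and 7 without the 24 h arrays, with 11.3% and 7.12% of all genes, and 9 without the 6 h arrays, with 5.35%. Pig 1 is the lowest in most of these genes at 20 min, and its samples also carried the high added controls.

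Of the 19 fibroblast and matrix genes 12 were called, 63.2%, against 18.6% of all genes, and 4 of these 12 had the highest value in the same pig, 33.3% against 72.3% of all called genes. Of the 13 macrophage genes 5 were called, 38.5%, none with the same highest pig. None was called without the time block or over all 12 arrays, with 19.9% and 25.4% of all genes. Without pig 1 or without pig 3, 2 of the 13 were, 15.4%, with 3.98% and 13.0% of all genes. Without the 24 h arrays 3 were, 23.1%, with 7.12% of all genes. Without pig 2, 3 of the 19 matrix genes were called, 15.8%, with 9.52% of all genes. Without pig 1, 4 of the 19 were, 21.1%, with 3.98% of all genes. Without the 6 h arrays 6 of the 19 were, 31.6%, with 5.35% of all genes. Without the 24 h arrays 7 of the 19 were, 36.8%, with 7.12% of all genes. Over the later portions, called or not, 9 of the 19 matrix genes and 3 of the 13 macrophage genes had the same highest pig as at 20 min.

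Of the 10 slow-fibre genes, 2 had the same highest pig in the later portions as at 20 min, 20.0% against 55.2% of all genes. The slow-fibre genes called were MYL3 (limma adjusted p = 0.0135) and CASQ2 (limma adjusted p = 0.00818), both with another pig highest. These 2 of 10, 20.0%, were close to the 18.6% of all genes. MYH7 had a limma adjusted p of 0.912. None of the 8 fast-fibre genes was called, and 6 of 59 genes of oxidative phosphorylation were, 10.2%, below the 18.6% of all genes. With a trended and robust prior the count was 17, or 28.8%, above the 23.2% of all genes in that fit, so the direction depends on the prior. The count was between 0 and 4 with a pig or a time left out, or 0.0% to 6.78%. In each of these fits the share was below that of all genes. Among ribosomal protein genes 1 of 59 was called, and among genes of other organs 0 of 28. A p above the threshold does not show that the pigs were equal in these genes.

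**Figure D5:**
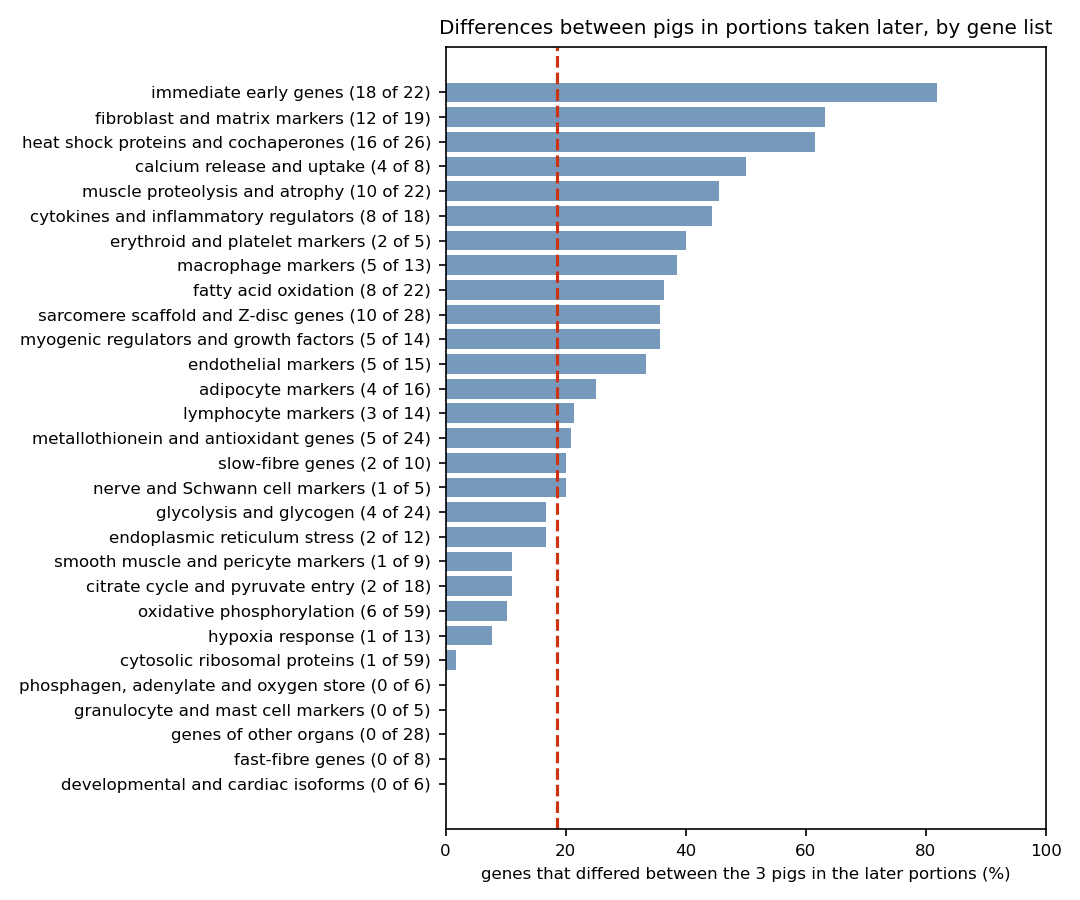
Percentage of genes in each list with an adjusted p under 0.05 for pig in the 9 later arrays (horizontal axis; limma F test with time as a block), for lists of at least 5 genes, with a dashed line at the share of all genes. Immediate early genes reach 81.8% and heat shock genes 61.5%, against 18.6% of all genes.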

How the data were processed

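Total RNA of each muscle portion was labelled with biotin and hybridised to a one-colour Affymetrix porcine array. The deposited values are log2 intensities to which the authors applied robust multi-array averaging (RMA); the submitters' processing notes name affy as the software. Its version, scan dates and detection calls were not given in the sources used here. RMA normalises all 12 arrays together, so levels at 20 min also draw on the later arrays. No sequence is printed. Gene names came from the platform annotation, and 9961 of 10069 probe sets matched the RefSeq gene table (Sscrofa11.1) by gene ID. Probe sets with several symbols (198) or none (13826) were not used for genes. No filter on dim probe sets was applied. The members and the gene lists were chosen with earlier results of these data known.

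The 3 pigs are separate animals with 1 array each at 20 min, so levels are given as mean and SD without a test, and their precision is set by having only 3 arrays. Pig was tested in the 9 later arrays with limma 3.58.1 in R 4.3.3 (lmFit, eBayes, F test, time as a block, 4 residual and 5.95 prior degrees of freedom) over 23999 probe sets, leaving out 124 controls, with Benjamini-Hochberg adjustment. In 5 simulations, 200 of 23999 probe sets were shifted in pig 3 alone, with independent noise on each array. There 43.2% of differences of 1.41-fold, 89.2% of 2-fold and 99.6% of 4-fold were recovered, and 2.18% of calls were false. In the arrays themselves 14.2% of probe sets were called, and portions of a pig may share effects. The 2.18% therefore does not give the share of false calls among the real ones. Genes were named from the 25 brightest, the brightest 4, the dimmest and the most variable of each list, the 25 with the largest SD, the 10 steadiest among the 1000 brightest, 5 genes with unlike probe sets, and pairs of fast and slow isoforms; other list members were named after their values were seen. Alternatives covered the probe set rule, a filter, the normalisation, the prior, the time block, the threshold, arrays left out and the 20 min arrays added. Levels were summarised with pandas 2.3.3.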

Additional observations from a re-analysis of the deposited data

How the results depend on the processing

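No paired analysis was possible because the 20 min arrays form a single group and pig is itself the factor tested in the later portions. With the mean of all probe sets of a gene, energy genes among the 100 brightest numbered 23 (15 with the brightest set) and stress and proteolysis genes 5 (9). Without the dimmest 40% of probe sets the median range between sets of 1 gene was 1.37 (1.70 with all). Genes with a range over 1 numbered 95 to 156 with a pig left out (243 with all). Probe sets called for pig numbered 1676 with 1 probe set per gene, 1353 at a threshold of 0.01, 2257 without the 2 h, 963 without the 6 h and 1321 without the 24 h arrays, and 684 to 2542 with a pig left out (3419 with all). Of the 25 most variable genes, 6 to 23 were called with a pig left out (23 with all), the lowest without pig 1. Counts of contractile, ribosomal and other-cell genes among the 100 brightest stayed within 1.5 times under each alternative run. Adjusted p-values of the 25 stayed on the same side of the threshold in 286 cases, lost the call in 32 and gained it in 4. These cases include a refit over all arrays, with those at 20 min. The 25 were chosen by their SD at 20 min, so calls in that refit were favoured in advance and do not show robustness. Signal over background was not given, so levels near those of other organs' genes cannot be read as expression.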

Other observations

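Complement genes other than the macrophage markers were chosen for this paragraph after their values were seen. C1S, a protease of the classical pathway, read 9.16, 9.33 and 10.70 in pigs 1, 2 and 3 at 20 min, and C1R, its partner, read 8.99, 8.93 and 10.30. SERPING1, the inhibitor of both, read 9.19, 9.29 and 10.29. C4BPA, a regulator of C4b, read 9.34, 8.84 and 10.86. All 4 were highest in pig 3. In the later portions C1R, SERPING1 and C4BPA had limma adjusted p-values of 0.0207, 0.0421 and 0.0079 for pig, and C1S had 0.0999. The F test gives no direction, and which pig was highest in these genes later is not reported here. Of all genes 18.6% were called, and of the 243 with a range above 1 at 20 min, which include these 4, 78.6% were.

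Of the interferon-induced genes named here, also chosen after their values were seen, all but OAS1 had the order pig 1 over pig 3 over pig 2. GBP1, a guanylate-binding protein, read 6.97, 5.45 and 6.30, and GBP2 read 6.23, 5.10 and 5.63, with pig 1 highest. OAS1, an antiviral RNA sensor, read 5.17, 5.94 and 6.66, with pig 3 highest. RSAD2, viperin, read 6.25, 5.05 and 6.22. Their limma adjusted p-values for pig in the later portions were 0.0145, 0.00408, 0.000166 and 0.00183. These genes too are among the 243 with a range above 1, of which 78.6% were called, against 18.6% of all genes. Which pig was highest in them later is not reported here.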
